A study of Mus musculus with 4 samples.

Results

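The 35 genes described here encode the Piwi proteins, the Tudor proteins, other factors that make Piwi-interacting RNAs (piRNAs), and RNA-binding proteins that store messenger RNAs and control their translation in male germ cells. They were chosen as a named list of symbols, and all 35 were found among the 24420 symbols of the deposited expression table. Testis RNA was sequenced in 4 libraries from FVB mice, 2 with the genotype lrrc8a MUT and 2 WT, and no treatment, age or kind of mutation is given in the labels. The tissue was freshly isolated testis, and the label "germ cells" is not matched by any step that separates cells. Whether the 2 libraries of a genotype come from separate animals is unknown from the sources used here. The p-values therefore describe only how far these libraries scatter, and that scatter may be technical. Values given in pairs are in the order of library 1 and library 2.

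As background, piRNAs are short RNAs bound by Piwi proteins, and in the testis they silence transposons in fetal germ cells and, in a later wave, cut or repress other transcripts in spermatocytes and round spermatids. Long precursors are cut at the mitochondrial surface, trimmed and methylated at their 3′ end, while Tudor proteins recognise methylated arginines on the Piwi proteins and gather the machinery in germ granules such as the chromatoid body of round spermatids. Because transcription stops when spermatid chromatin is compacted, many spermatid messenger RNAs are made early and held untranslated by RNA-binding proteins until they are needed.

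No difference in any of the 34 genes of the list that could be tested passed the test between MUT and WT testis, and the estimated differences were small. Their log2 fold changes (MUT minus WT, on the log2(CPM + 0.5) scale, where CPM is the deposited read count after scaling to library size) lay between -0.18 for Henmt1 and 0.21 for Boll. The 95% confidence intervals, which are not widened for the number of genes, reached from 0.773-fold to 1.32-fold at their extremes. None of them included a 2-fold change in either direction. By limma with Benjamini-Hochberg adjustment over 15364 tested genes, 0 of 34 were called higher at an adjusted p under 0.05, against 0.482% of all tested genes, and 0 of 34 lower, against 0.267%. In either direction the share of all tested genes was 0.749%, and among the members the smallest adjusted p was 0.204 for Ybx2. At an unadjusted p under 0.05 there were 5, which is 14.7% of the 34, and the share among all tested genes was also 14.7%. The count tests run on recovered reads, edgeR's quasi-likelihood test and DESeq2, called 0 of the 34 as well. The median log2 fold change of the list was 0.01, beside -0.0016 for all tested genes. With 2 libraries per genotype the smallest two-sided p of an exact permutation test is 0.333, and genes were tested only in the model across all genes.

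**Figure D1:**
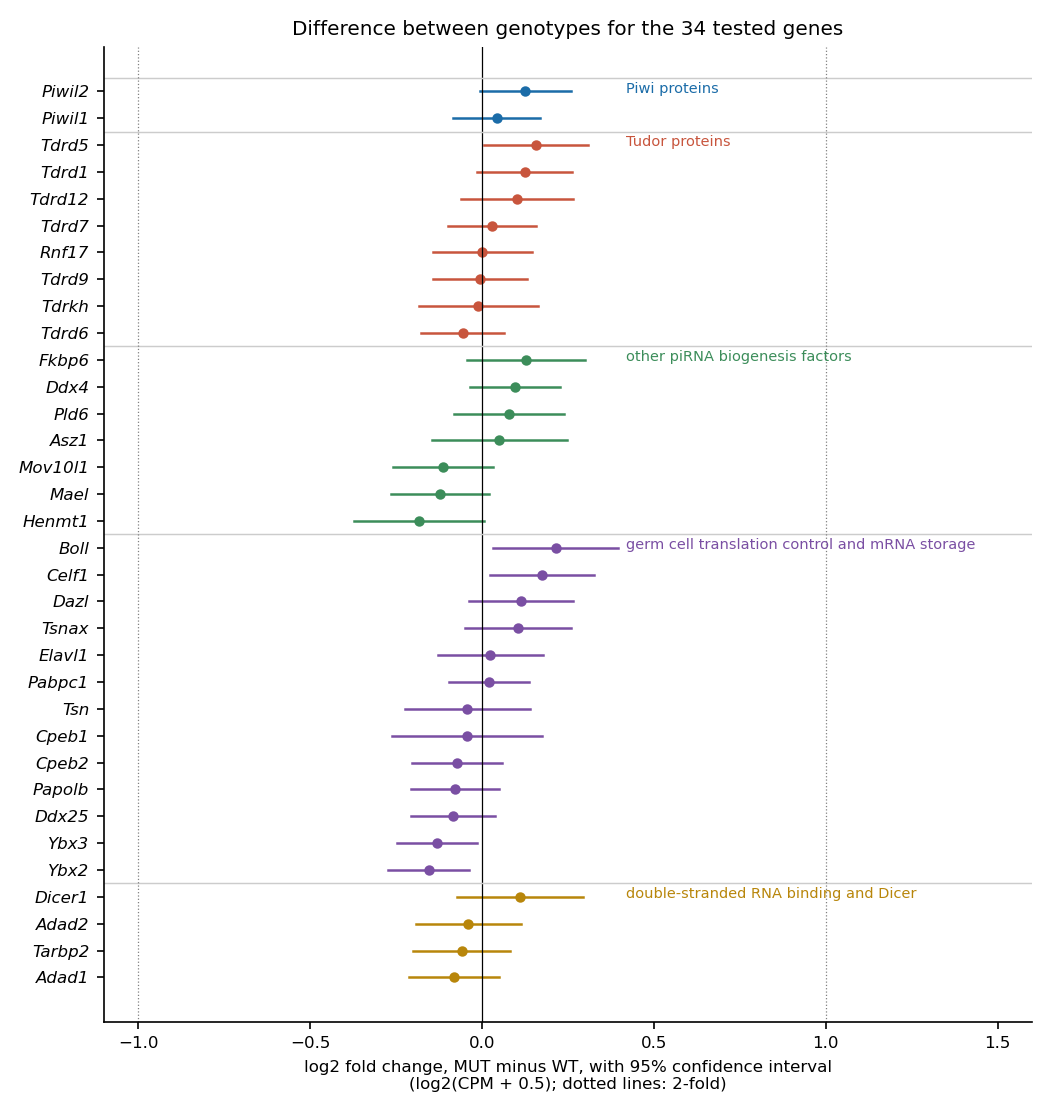
Log2 fold change (MUT minus WT, on log2(CPM + 0.5)) of the 34 tested genes, ordered within 5 roles; points are estimates, bars are 95% confidence intervals from limma, and dotted lines mark a 2-fold change. All bars lie well inside the dotted lines, and those of Ybx2, Ybx3, Boll, Celf1 and Tdrd5 do not touch 0, although none of these 5 was called after adjustment over all genes.

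The libraries held 40426400 to 68192776 reads assigned to genes, and the 35 genes took 1.40% of the CPM in each MUT library and 1.41% and 1.43% in WT 1 and WT 2. Lrrc8a, whose protein is the essential part of a chloride channel that opens when cells swell, was at 13.5 and 15.9 CPM in MUT against 18.2 and 17.1 in WT (log2 fold change -0.26, SE 0.0998, limma adjusted p = 0.218). Markers of somatic cells were present: all 10 Sertoli, 8 Leydig, 6 peritubular myoid, 8 macrophage and 5 endothelial markers had reads in every library. The summed Leydig markers stood at 1172 and 1208 CPM in MUT against 1024 and 1004 in WT, the Sertoli markers at 905 and 940.2 against 878 and 833 CPM, and the peritubular myoid markers at 369 and 390 against 420 and 406 CPM. The median log2 fold change of the Leydig markers was 0.23, and 1 of the 8 was called higher. This was Cyp17a1, of androgen synthesis, at 657 and 680.2 CPM in MUT against 573 and 533 in WT (0.28, SE 0.0604, limma adjusted p = 0.0361). Cyp17a1 was called in 13 of 19 alternatives. The call was lost without the filter on low values (limma adjusted p = 0.242), without the variance trend (0.283) and with the replicate number as a block (0.0514). It was also lost without MUT 1, MUT 2 or WT 2, at log2 fold changes of 0.30, 0.25 and 0.22. Macrophage markers summed to 104 and 112 CPM in MUT against 106 and 96.5 in WT, and endothelial markers to between 42.8 and 45 CPM in all libraries. Of the 5 erythroid markers, 4 globin genes were at 0 in every library and Alas2, of haem synthesis, was at 19.9 to 24.1 CPM, and the epididymal markers summed to 0.489 CPM or less. In bulk tissue, fewer cells of a type and less RNA per cell cannot be told apart.

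Promoters of 3 of the genes are printed to show what regulatory sequence stands before them: a gene of the piRNA machinery from each of the Piwi and Tudor roles, and Ybx2, the member with the smallest p and the highest level per length. Each run is 300 bases, from 250 before to 50 after an annotated start, from RefSeq on GRCm38.p6, written 5′ to 3′ on the strand of the gene. Capitals mark 2 motifs, searched on both strands. The MYB core CNGTTG is the element of the meiotic transcription factor A-MYB, and the other is the Y-box core CCAAT, which reads ATTGG on the opposite strand. Neither motif is contained in the other.
Piwil1, chr5:128735996-128736295, plus strand: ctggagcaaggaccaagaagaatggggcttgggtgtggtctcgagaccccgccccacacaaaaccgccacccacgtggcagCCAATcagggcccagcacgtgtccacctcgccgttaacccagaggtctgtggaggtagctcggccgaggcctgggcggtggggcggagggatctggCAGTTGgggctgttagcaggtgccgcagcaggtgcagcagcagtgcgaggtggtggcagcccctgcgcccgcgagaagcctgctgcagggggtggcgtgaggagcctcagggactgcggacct
Tdrd5, chr1:156303299-156303598, minus strand: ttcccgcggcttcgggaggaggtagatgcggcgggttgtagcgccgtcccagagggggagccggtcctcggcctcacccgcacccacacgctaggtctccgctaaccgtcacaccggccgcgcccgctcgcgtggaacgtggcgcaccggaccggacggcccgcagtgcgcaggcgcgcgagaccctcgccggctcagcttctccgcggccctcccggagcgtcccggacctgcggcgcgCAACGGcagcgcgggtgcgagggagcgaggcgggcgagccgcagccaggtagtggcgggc
Ybx2, chr11:69935649-69935948, plus strand: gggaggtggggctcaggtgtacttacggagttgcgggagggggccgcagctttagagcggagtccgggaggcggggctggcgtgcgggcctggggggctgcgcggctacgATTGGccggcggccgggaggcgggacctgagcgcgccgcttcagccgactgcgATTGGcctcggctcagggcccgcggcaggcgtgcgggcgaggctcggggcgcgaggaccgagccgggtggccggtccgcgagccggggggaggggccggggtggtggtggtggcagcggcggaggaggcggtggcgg
The Piwil1 window holds 1 MYB core, 73 bases before the start, and 1 Y-box core, 169 bases before it. In the Tdrd5 window there is 1 MYB core, 10 bases before the start, and no Y-box core. The Ybx2 window holds 2 Y-box cores, both as ATTGG, at 140 and 87 bases before the start, and no MYB core. It is 1 of 2 promoters listed for Ybx2. Distances are from the start used for each window. On the strand of each gene, GENCODE places all 3 gene starts earlier, at 128702524 for Piwil1, 156303664 for Tdrd5 and 69935796 for Ybx2. By GENCODE, the Piwil1 and Tdrd5 windows therefore lie wholly inside the gene. Promoters were at hand for 28 of the 35 genes. Counting a gene once if any of its promoters matched, the MYB core was found for 10 of 28 (35.7%). The share was 38.3% over the 27025 genes of the promoter set, which is not the deposited expression table. The Y-box core was found for 17 of 28 (60.7%), beside 41.1% of the genes of the promoter set. The cyclic AMP response element TGACGTCA was found in 0 of the 28 genes and in 2.03% of the genes of the promoter set. A match is a description of the letters and not a bound site.

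Among the Piwi proteins, Piwil1 (MIWI), the partner of the later piRNA wave in spermatocytes and round spermatids, had the highest mean level per length, at 129 CPM per kb of its longest annotated transcript, beside 36.2 for Piwil2. It was at 538 and 512 CPM in MUT against 496 and 524 in WT. The genotypes overlapped, and the log2 fold change was 0.04 (95% confidence interval -0.08 to 0.17). Piwil2 (MILI), which acts in both fetal and adult germ cells, was at 189 and 183 CPM in MUT against 169 and 172 in WT. Both MUT libraries lay above both WT libraries, with a log2 fold change of 0.13 (SE 0.0632, limma adjusted p = 0.366) that did not pass the test. The ratio of Piwil1 to Piwil2 CPM within a library was 2.84 and 2.81 in MUT and 2.94 and 3.05 in WT, which compares libraries and is not a ratio of molecules.

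Piwil4 (MIWI2), the nuclear Piwi protein of fetal germ cells, had the lowest level of the list per length, at 0.144 CPM per kb, and did not pass the filter of 1 CPM in 2 libraries. It had 29 and 24 reads in MUT and 24 and 18 in WT, which is 0.595 and 0.586 CPM against 0.356 and 0.362 CPM. Both MUT values were higher. When all detected genes were tested without the filter, its log2 fold change was 0.34 (SE 0.109, limma adjusted p = 0.309), a value that the pseudocount of 0.5 makes smaller than the CPM ratio.

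Of the 8 Tudor genes, the log2 fold change was positive for 5 and negative for 3. None was called, and their median was 0.02. Tdrd6, which encodes a scaffold of the chromatoid body, was the most abundant per length, at 938 and 932 CPM in MUT against 945 and 999 in WT. Its MUT libraries were the lower pair, by 0.06 on the log2 scale (95% confidence interval of the difference -0.18 to 0.07). Tdrd5, needed for the germ granules of spermatocytes and for transposon silencing, was at 111 and 100.1 CPM in MUT against 91.6 and 97.3 in WT. Here MUT 1 stood apart and MUT 2 was close to WT 2 (log2 fold change 0.16, SE 0.0721, limma adjusted p = 0.319). Tdrd1, the partner of MILI in the cement between mitochondria, was at 218 and 201 CPM in MUT against 198 and 187 in WT. The genotypes did not overlap, but MUT 2 and WT 1 were nearly level (0.12, SE 0.0661, adjusted p = 0.398).

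The other 5 Tudor genes are given more briefly. Tdrd12, a helicase of secondary piRNA production, averaged 42.6 ± 2.09 CPM in MUT against 39.7 ± 0.268 in WT (SD, n = 2, as for all such values), with both MUT libraries higher (log2 fold change 0.10). Tdrd7, Tdrd9, Tdrkh and Rnf17 had log2 fold changes between -0.01 and 0.03, with overlapping libraries. Of these, Tdrd9 is a helicase that works with MIWI2, Tdrkh anchors Piwi proteins at mitochondria for trimming, and Rnf17 restrains piRNA amplification in spermatocytes. For Rnf17 the WT libraries were 194 and 219 CPM and enclosed both MUT libraries, at 211 and 201 CPM. Tdrkh overlaps Oaz3, a gene of spermatids on the opposite strand. Whether reads were counted by strand is unknown here, and reads of the pair cannot be told apart if strand was ignored.

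The other piRNA factors divided in direction, with 4 above 0, 3 below and 0 called among 7 tested. Mael, a nuage protein needed to make piRNAs in spermatocytes, was the most abundant per length, at 959 and 1011 CPM in MUT against 992 and 1156 in WT. The highest value came from WT 2 alone and the genotypes overlapped (log2 fold change -0.12, SE 0.068, limma adjusted p = 0.428). The value was -0.23 without WT 1 and -0.01 without WT 2. Henmt1, the methyltransferase that protects piRNA 3′ ends, was at 25.3 and 26.8 CPM in MUT against 27.4 and 32 in WT. Both MUT libraries were lower, yet WT 1 was closer to MUT 2 than to WT 2. Its log2 fold change of -0.18 (SE 0.0901, adjusted p = 0.355) was the lowest of the list, and it was -0.29 without WT 1 and -0.07 without WT 2. Mov10l1, the helicase that feeds precursors into processing, averaged 83.1 ± 4.18 CPM in MUT against 89.8 ± 0.0353 in WT (-0.11). Ddx4 (VASA), the germ cell helicase, was at 471 ± 13.5 and 442 ± 27.1 CPM (0.09), Fkbp6, a co-chaperone for Piwi loading, at 38.9 ± 0.709 and 35.6 ± 2.89 CPM (0.13), and Pld6, the mitochondrial nuclease Zucchini, at 61.1 ± 0.859 and 57.9 ± 4.43 CPM (0.08). Asz1, which anchors the germ granule at mitochondria, was at 22.6 ± 1.13 and 21.8 ± 2.33 CPM (0.05).

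**Figure D2:**
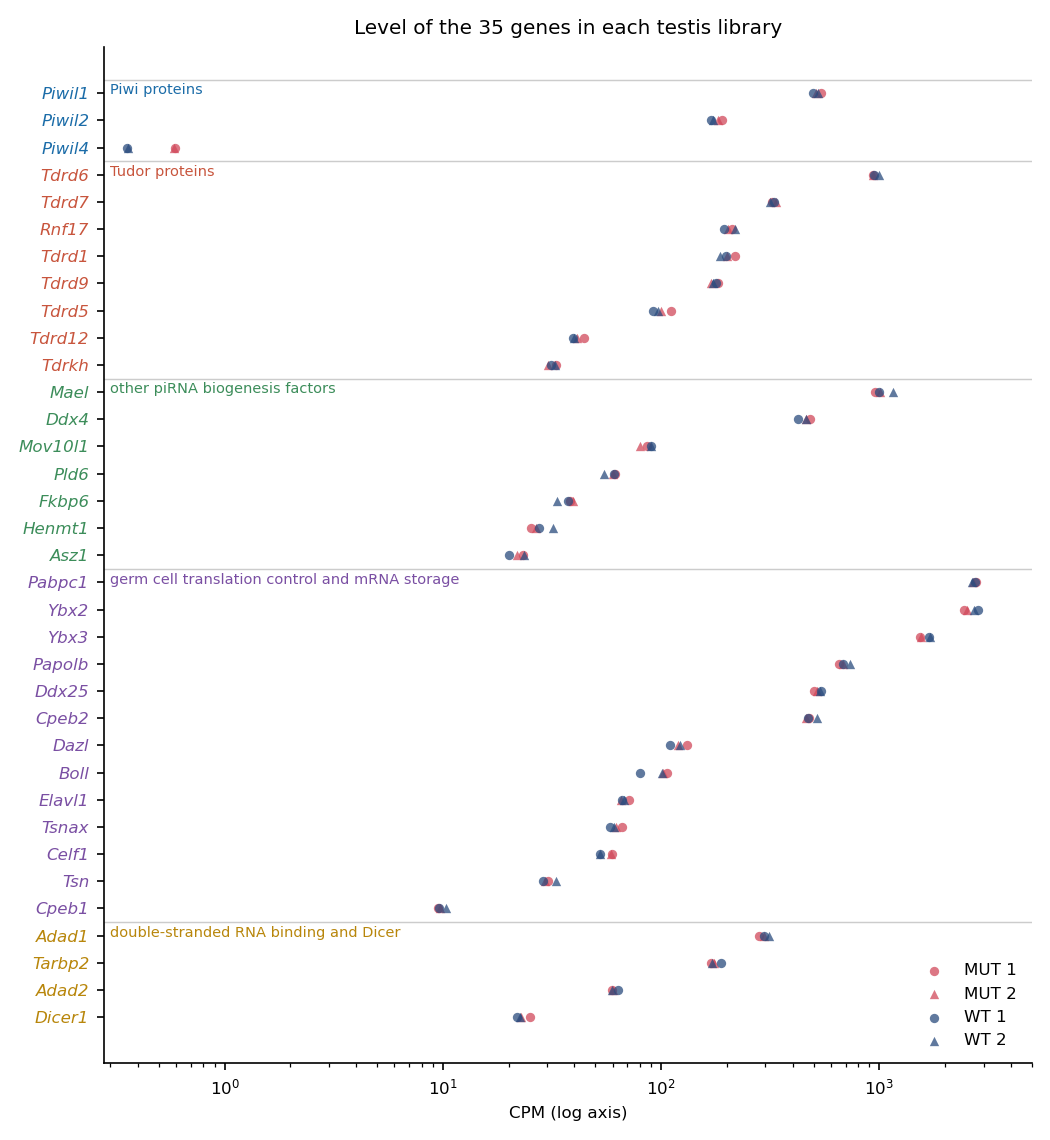
CPM (log axis) of the 35 genes in each of the 4 libraries, ordered by level within 5 roles; red points are MUT and blue points WT, with circles for library 1 and triangles for library 2. Levels run from 0.356 CPM for Piwil4 to 2815 CPM for Ybx2, and for most genes the 4 points nearly coincide at this scale. CPM are not corrected for transcript length.

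The highest levels per length in the list were those of Ybx2, Pabpc1 and Ybx3, of the translation control and storage role. The CPM of this role, summed over 13 genes, were at 8849 and 8871 CPM in MUT against 9335 and 9278 in WT. The lower sum in MUT came mainly from Ybx2 and Ybx3. Of the 13, 6 lay above 0 and 7 below on the log2 scale, and 0 were called. Per kb of the longest annotated transcript, the mean level over all libraries was 1566 CPM per kb for Ybx2, 930 for Pabpc1 and 872 for Ybx3. On the same scale, Mael was at 609, Ddx4 at 152, Tdrd6 at 135 and Dicer1 at 2.34 CPM per kb. Other genes of the storage role ranged widely, from Papolb at 162 CPM per kb down to Celf1 at 7.12, Tsn at 4.29 and Cpeb1 at 3.14. The transcript used by the testis can be shorter than the longest annotated form, which would raise such a value.

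Ybx2 (MSY2) and Ybx3 (MSY4) are Y-box proteins that coat and store germ cell messenger RNAs. Ybx2 was at 2434 and 2524 CPM in MUT against 2815 and 2704 in WT, from 103306 reads or more in each library. Both MUT libraries were below both WT libraries (log2 fold change -0.15, SE 0.0563, limma adjusted p = 0.204). The fold was 0.898, with a 95% confidence interval of 0.828 to 0.975. Ybx3 was at 1535 and 1551 CPM in MUT against 1680 and 1697 in WT. Within each genotype its libraries were nearly level and the genotypes did not overlap (-0.13, SE 0.0555, adjusted p = 0.279). Neither passed the test. With the trends on GC content and transcript length taken out of every library, the value of Ybx2 was -0.02 and that of Ybx3 -0.06, and after quantile normalization that of Ybx3 was -0.01. The GC content of the Ybx2 transcript is 63.4%, the highest of the list. Their relative Ybx1, outside the list, was at 1463 and 1415 CPM in MUT against 1394 and 1360 in WT (0.06, SE 0.0565, adjusted p = 0.645).

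Boll and Dazl belong to the DAZ family, whose proteins bind the 3′ ends of germ cell messenger RNAs and promote their translation. Boll was at 106 and 102 CPM in MUT against 79.8 and 101 in WT. WT 2 was almost level with MUT 2, and WT 1 was low. The log2 fold change of 0.21 (SE 0.0869, limma adjusted p = 0.253) was 0.05 without WT 1. Without WT 2 it was 0.38 and passed the test (adjusted p = 0.0163), the single call of a member in 646 combinations of a member and an alternative setting. Dazl was at 131 and 120 CPM in MUT against 110 and 122 in WT, and the genotypes overlapped (0.11).

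Celf1, which promotes the decay of messenger RNAs with GU-rich elements, was at 59.4 and 59.2 CPM in MUT against 52.5 and 52.4 in WT. The larger of its within-genotype gaps on the log2 scale was the smallest among the 35 members, and the log2 fold change was 0.18 (SE 0.0721, limma adjusted p = 0.259). It did not pass the test, which shares its estimate of spread across genes of like level. After removal of the GC and length trend the value was 0.10. Celf1 lies on chromosome 2 from 90940382 to 91019497 (GRCm38), on the chromosome of Lrrc8a, which runs from 30237715 to 30263790.

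Other storage and polyadenylation genes had smaller differences. Papolb, the testis-specific cytoplasmic poly(A) polymerase, averaged 669 ± 21.3 CPM in MUT against 706 ± 38.7 in WT (log2 fold change -0.08), and it lies within Radil on the same strand. Ddx25 (GRTH), the gonadotropin-regulated helicase that carries messenger RNAs to the chromatoid body, was at 509 ± 12.5 and 539 ± 4.28 CPM (-0.09), and both MUT libraries were lower. Cpeb1 and Cpeb2, of the cytoplasmic polyadenylation element binding family, had mean levels of 9.63 and 470 CPM in MUT against 9.94 and 495 in WT. Pabpc1, the cytoplasmic poly(A)-binding protein, was at 2776 and 2685 CPM in MUT against 2741 and 2643 in WT, and the genotypes overlapped (0.02, 95% confidence interval -0.10 to 0.14). Pabpc1 has processed copies in the genome, so part of its reads may have been assigned elsewhere. Translin (Tsn) and its partner Tsnax had log2 fold changes of -0.04 and 0.11, and Elavl1 (HuR), which stabilises AU-rich messenger RNAs, of 0.02.

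In the double-stranded RNA group, Adad1 (TENR), a nuclear RNA-binding protein of spermatids, was the most abundant per length, at 280.1 and 295 CPM in MUT against 297 and 311 in WT. Both MUT libraries were lower, by a log2 fold change of -0.08 (95% confidence interval -0.21 to 0.05). Its relative Adad2 was at 59.8 ± 0.237 and 61.5 ± 2.97 CPM (-0.04). Dicer1, the nuclease that makes microRNAs and endogenous small interfering RNAs, averaged 24 ± 1.54 CPM in MUT against 22.1 ± 0.501 in WT (0.11), and its partner Tarbp2 at 172 ± 3.57 and 180 ± 13 CPM (-0.06). Of these 4, 1 was above 0, 3 were below and 0 were called.

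The differences between genotypes were compared with those between the libraries of a genotype. For 21 of the 34 tested members (61.8%) the gap between the 2 WT libraries was larger than the gap between the genotype means on the log2 scale, and over all tested genes this share was 52.5%. The gap between the MUT libraries was larger than the genotype gap for 10 of the 34 (29.4%), beside 48.8% of all tested genes. A gap between 2 single libraries scatters more than a gap between 2 means, so these shares do not set like against like. In 10 members both MUT libraries were above both WT libraries, where the share over all tested genes is 23.0%, and in 7 both were below, where it is 22.6%. Together these 17 are as many as the 17 members that overlapped, and over all tested genes 45.6% did not overlap. MUT 1 gave the highest value of 16 members and MUT 2 of 2, while WT 2 gave the highest of 12 and WT 1 of 4. The median log2 fold change of the members was accordingly -0.03 without MUT 1 and 0.05 without MUT 2.

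**Figure D3:**
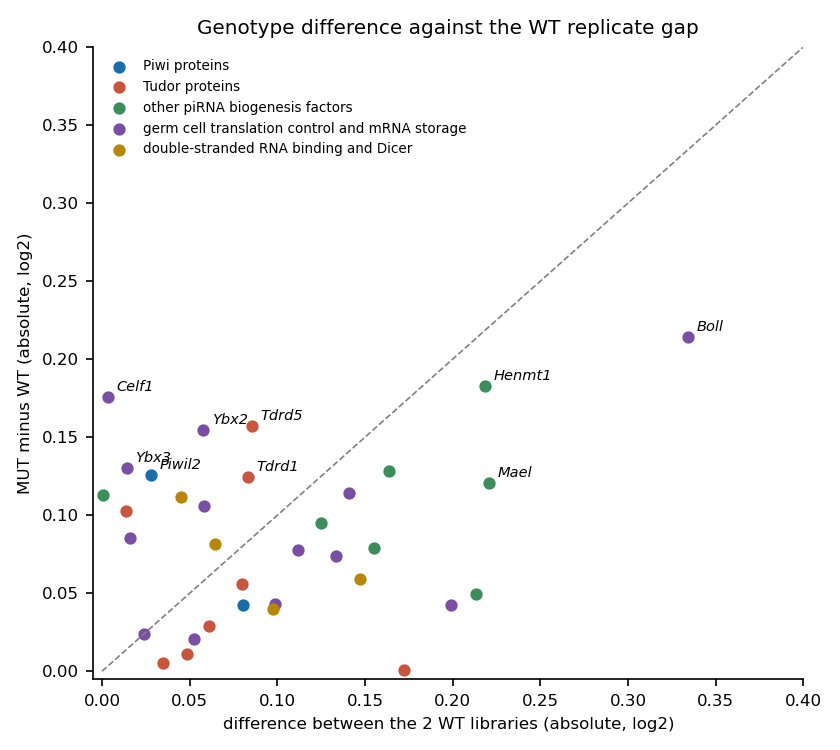
Absolute log2 difference between genotype means (vertical axis) against that between the 2 WT libraries (horizontal axis) for the 34 tested members, coloured by role; the dashed line marks equal gaps. The 21 points below the line include Boll, Henmt1 and Mael, and Celf1 and Ybx3 lie at the left edge with a WT gap near 0.

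Related genes from lists outside the 35 were read in the same fit. Of 19 tested other genes of the piRNA pathway, 0 were called and the median log2 fold change was -0.02. Those with the smallest p were Gtsf1, a cofactor of Piwi slicing, at 237 and 247 CPM in MUT against 260.4 and 269.7 in WT (-0.13, SE 0.0621, limma adjusted p = 0.336), and Mybl1, the gene of A-MYB, at 67.2 and 66.2 CPM in MUT against 53.4 and 68.2 in WT (0.14, SE 0.091, adjusted p = 0.489). For Mybl1 the genotypes overlapped and WT 1 was low, as for Boll.

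Of 24 genes of the Argonaute, microRNA and decay list, 0 were called and 15 were above 0. Ago2, the slicing Argonaute, was at 25.7 and 23.6 CPM in MUT against 18.7 and 18.9 in WT (log2 fold change 0.38, SE 0.0883, limma adjusted p = 0.0519), just outside the threshold, and it was called in 7 of 19 alternatives. Ago3 was at 9.45 and 8.36 CPM in MUT against 7.02 and 6.49 in WT (0.37, SE 0.114, adjusted p = 0.132). Ago2 is also expressed in somatic cells, and the part of the higher Leydig and Sertoli marker sums in these values was not tested.

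Among 44 other RNA-binding and poly(A) genes, 0 were called higher and 1 lower. Celf5, a relative of Celf1, fell from 68.1 and 61.9 in WT to 46.6 and 50.3 CPM in MUT, the lower pair (log2 fold change -0.42, SE 0.0775, limma adjusted p = 0.0122). The call was kept in 16 of 19 alternatives and was lost without MUT 1 (adjusted p = 0.0842), without the filter on low values (0.145) and without the variance trend (0.199). The Celf pair thus stood on opposite sides of 0, with a passed test for Celf5 only, and the difference between the 2 genes was not tested.

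The 15 spermatid messenger RNAs that are stored before translation had a median log2 fold change of -0.07, with 11 below 0 and 0 called. Prm2, which encodes the abundant protamine 2, was at 4764 and 4524 CPM in MUT against 5479 and 4738 in WT (-0.13, SE 0.0653, limma adjusted p = 0.348). Gapdhs, the sperm glyceraldehyde-3-phosphate dehydrogenase, was at 1307 and 1276 CPM in MUT against 1482 and 1420.1 in WT (-0.17, SE 0.0568, adjusted p = 0.174), and Odf2 of the outer dense fibres at 4231 and 3905 against 4705 and 4289 CPM (-0.14, SE 0.0615, adjusted p = 0.281). After quantile normalization Prm2 and Odf2 were at 0, and Prm2 was at -0.03 without WT 1 and -0.24 without WT 2.

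Germ cell stage markers gave the frame for these values. The 10 spermatocyte markers had a median log2 fold change of -0.06 and the 10 round spermatid markers of -0.01, with 0 called in each. The 10 spermatogonial markers had a median of 0.17, with 7 above 0 and 3 below. Their summed CPM overlapped between genotypes, at 155 and 148 in MUT against 138 and 152 in WT. Of the 10, 1 was called higher, the receptor gene Kit, at 20.7 and 23.1 CPM in MUT against 14.6 and 17 in WT (0.46, SE 0.0987, limma adjusted p = 0.0329). Kit was called in 13 of 19 alternatives. The call was lost without MUT 2 (adjusted p = 0.106) and WT 1 (0.101), without the filter on low values (0.223), without the variance trend (0.202), after quantile normalization (0.0778) and after removal of the GC and length trends (0.0756). Pou5f2 and Sycp1 were the spermatocyte markers with the smallest p, at log2 fold changes of 0.19 and 0.14, and Catsper3 and Acr those of round spermatids, at 0.19 and -0.11. None of these 4 was called.

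**Figure D4:**
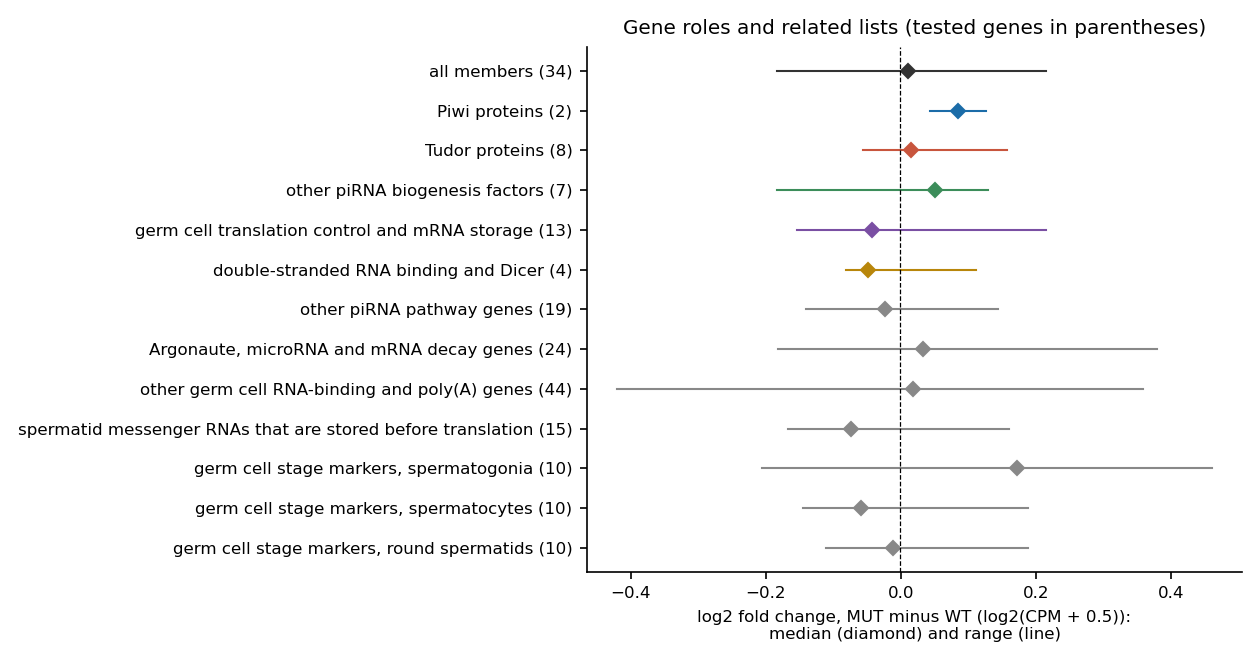
Median (diamond) and range (line) of the log2 fold change, MUT minus WT on log2(CPM + 0.5), for the 34 tested members, their 5 roles and 7 related lists; the dashed line is the median of all 15364 tested genes. Medians lie between -0.07 for the stored spermatid messenger RNAs and 0.17 for the spermatogonial markers, and that of the members is 0.01.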

How the data were processed

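The deposited data are 1 CPM table of the 4 libraries, made with the Illumina TruSeq stranded mRNA kit from DNase-treated Trizol RNA, per the labels' protocols. TopHat2 2.0.10, HTSeq 0.6.0, edgeR 3.8.6 and mm10 are named in the submitters' processing notes, without roles or order. Every value was a whole multiple of the smallest value of its library (100% within 0.001 of a whole read), which recovered the reads. Symbols with at least 1 CPM in at least 2 libraries were tested on log2(CPM + 0.5) with limma 3.58.1 (eBayes with a mean-variance trend, R 4.3.3, two-sided, Benjamini-Hochberg over all tested genes). Recovered reads were tested with edgeR 4.0.16 (75 genes called higher and 41 lower, against 74 and 41 by limma) and DESeq2 1.42.0. A floor of 3 reads is 0.0445 to 0.0733 CPM and covers counting error only. The 2 libraries of a genotype were not duplicates (chi-square per degree of freedom 6.44 for MUT, 13.2 for WT). The fits were tested on simulated reads.

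Positions, lengths and GC content came from GENCODE vM21 (GRCm38), which matched 23376 of 24420 symbols. The members, lists and tests were chosen with earlier results of these data known. Values in every library were given for the 8 members with the smallest p, for members with separated genotypes and an absolute log2 fold change of at least 0.15, and for the most abundant member per length in each role. In each other list the called genes, or else the 2 with the smallest p, were named, together with the stored spermatid messenger RNA of highest CPM. Ybx1 and Lrrc8a, and after their values were seen Cyp17a1, Alas2 and Smim10l1, were added outside this rule. Values in every library were also given outside it for the members Piwil4, Rnf17, Dazl and Pabpc1.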

Additional observations from a re-analysis of the deposited data

How the results depend on the processing

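Across 19 alternatives, 22 of the 34 tested members kept the direction of their log2 fold change in all, and the 12 that did not had an absolute value of at most 0.06. Alternatives that changed only the filter, the variance model or the replicate block left each estimate as it was, so they could not change a direction. Under quantile normalization Tdrd6 was at 0.0098 and Tdrd9 at 0.024, scaled to the column sum Tdrd9 was at 0.023 and Tdrkh at 0.017, and scaled without the 100 most abundant genes these 2 were at 0.017 and 0.011. Rnf17 was at -0.0024 by edgeR, -0.0018 by DESeq2 and -0.042 after the GC and length correction, where Adad2 was at 0.093 and Elavl1 at -0.032. When each library was left out in turn, with a lone library assumed to vary like the other genotype, values ranged from -0.062 to 0.052 for Tdrd9, -0.071 to 0.049 for Tdrkh, -0.085 to 0.087 for Rnf17, -0.089 to 0.0090 for Adad2, -0.036 to 0.084 for Elavl1, -0.057 to 0.16 for Asz1, -0.0056 to 0.047 for Pabpc1, -0.0011 to 0.060 for Tdrd7, -0.13 to 0.015 for Tarbp2, -0.14 to 0.057 for Tsn, -0.092 to 0.0064 for Cpeb1 and -0.031 to 0.32 for Mybl1. The median of the members ranged from -0.032 to 0.047, members called higher from 0 to 1 (Boll, without WT 2) and members called lower were 0.

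Over all genes, where 74 were higher and 41 lower, dropping the low-value filter left 7 and 4, quantile normalization 35 and 18, and a fit with no variance trend 5 and 2. There were 127 higher genes after scaling to the column sum and 113 without the 100 most abundant genes, against 35 and 37 lower, and DESeq2 gave 86 and 71. Leaving out a library gave 71 to 115 higher (115 without WT 1) and 43 to 165 lower genes (89 without MUT 2, 165 without WT 1). The cause was not tested. The replicate numbers of the labels do not pair the libraries by any stated animal or batch. A fit with the replicate block called 57 and 31 genes and 0 members. The differences between libraries 1 and 2 of the genotypes correlated at -0.134 across genes, and the crossed pairing, added after the data were seen, called 131 and 104 genes. The deposited CPM summed to 992487 and 987723 in MUT 1 and MUT 2, against 1011460 and 1008530 in WT 1 and WT 2. They were therefore not scaled to the sum of the reads alone. With column-sum scaling the median over all tested genes was 0.03 on the log2 scale, and that of the members was 0.039.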

Other observations

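The neighbourhood of Ybx3 was looked at after its values were seen. Ybx3 lies on chromosome 6 from 131364855 to 131388476 (GRCm38), and 5 other tested genes lie within 2 Mb of it. Of these 5, Smim10l1 was called: it starts 1.72 Mb beyond the end of Ybx3 and rose from 8.17 and 9.95 CPM in WT to 23.2 and 21.3 CPM in MUT (log2 fold change 1.26, limma adjusted p = 1.13e-06). Ybx3 was lower and Smim10l1 higher in MUT, with only the latter past the test. Within 2 Mb of Celf1, 40 other genes were tested and 0 were called, and within 2 Mb of Ybx2 it was 0 of 101. Called genes also lay within 2 Mb of Piwil1, Piwil4, Ddx25, Mov10l1, Rnf17, Adad1, Tsnax and Dicer1. The share of tested neighbours that were called was 1.33% (Rnf17) to 6.67% (Dicer1) for these members, and 20% of only 5 genes for Ybx3. Whether the neighbourhood of Ybx3 differs from the others was not tested. Over all tested genes, 0.749% were called.

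Ratios of partner genes were compared within libraries. The CPM ratio of Ybx2 to Ybx3 was 1.586 and 1.627 in MUT and 1.675 and 1.593 in WT, and the genotypes overlapped. The ratio of Tsnax to Tsn was 2.19 and 2.10 in MUT and 2.03 and 1.84 in WT, higher in both MUT libraries, with no test of the difference. The ratio of Boll to Dazl was 0.807 and 0.852 in MUT and 0.723 and 0.827 in WT, lowest in WT 1.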
